A study of Mus musculus with 14 samples.

Results

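Nuclear receptors are transcription factors that many small lipophilic molecules switch on, and 42 of the 54532 genes in the deposited table were taken as this family, by gene name. The set holds the receptors for thyroid hormone, retinoids, fatty acids, oxysterols, vitamin D, xenobiotics and steroids together with the orphan receptors, and it leaves out, among others, the REV-ERB genes, Nr1h4 and Nr0b2. Most members bind DNA next to a partner, often an RXR, at copies of a short half-site. Without an activating ligand, several of them, the thyroid hormone and retinoic acid receptors among them, hold corepressors such as NCoR1 on their target genes, and ligand exchanges these for coactivators. In the intestinal epithelium, HNF4α and HNF4γ are known for maintaining enterocyte identity, PPARα and PPARδ for sensing fatty acids, VDR for calcium uptake, PXR for detoxification and the LXRs for cholesterol export.

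RNA of scraped ileum mucosa was sequenced from 7 WT and 7 IKO mice, 1 library per mouse, after 15 weeks on an HFD. The WT mice carried NCoR1 flox/flox alleles without Cre, and the IKO mice carried the same alleles with Cre under the villin promoter, which is active in the epithelium. All mice were males aged 7 to 8 weeks when feeding began, according to the methods, and no chow-fed animals are among these libraries. A figure legend of the paper gives an older age and a period on chow before the HFD. A scrape also takes up cells in which this Cre is not active, and the labels call the cells intestinal epithelial cells. In such bulk RNA, fewer cells of a type and less RNA per cell cannot be told apart.

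Between 14749669 and 21557468 reads were counted per library. Mitochondrially encoded genes took 50.3% of them in IKO4, 23.9% in WT3 and 3.49% to 10.3% in the other libraries. The summed level of 7 smooth muscle markers was 13004 CPM (read counts scaled to a common library size with the TMM factors) in WT4, against medians of 178 in WT and 138 in IKO mice, and 6 fibroblast and 6 neuronal and glial markers were also highest in WT4. The epithelium was present in each library, with 6 enterocyte markers summing to between 19477 CPM in WT7 and 80205 CPM in WT2. Of the 61 tested markers on the 15 cell type lists 0 passed in the edgeR comparison of the genotypes, against 8.67% of all genes. An unadjusted p under 0.05 was found for 3 that were higher and 16 that were lower in the IKO group. For all genes that share was 30.4%, both directions together. Among the 16 were 3 of 4 stem cell, 4 of 5 fibroblast and 3 of 5 B and plasma cell markers. DESeq2 called 2 higher and 5 lower, limma-voom 2 and 3, where 17.9% and 13.6% of all genes were called in either direction. Ncor1 had a median of 129.7 CPM in WT and 47.7 CPM in IKO mice without overlap, with a log2 fold change of -1.41 (standard error, SE, 0.18; edgeR adjusted p = 0.00051, by its quasi-likelihood test and Benjamini-Hochberg adjustment), and these counts cover the whole gene rather than the deleted part.

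The promoter windows of the 5 receptor genes, of 29 tested, that passed the test between the genotypes (against 8.67% of all genes tested) are printed first, because these are the members on which the comparison turns. Each is the stretch of 250 bases before the RefSeq start site, on GRCm38.p6 and read in the direction of the gene, with the GC box GGGCGG and the TATA box TATAAA, found on either strand, in capitals.
Vdr chr15:97908297-97908546 (- strand): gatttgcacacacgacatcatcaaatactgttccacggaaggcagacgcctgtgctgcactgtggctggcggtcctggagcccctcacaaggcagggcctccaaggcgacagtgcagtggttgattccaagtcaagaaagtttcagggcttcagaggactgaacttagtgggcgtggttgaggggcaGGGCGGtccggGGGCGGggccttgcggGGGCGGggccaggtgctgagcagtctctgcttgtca
Ppara chr15:85735526-85735775 (+ strand): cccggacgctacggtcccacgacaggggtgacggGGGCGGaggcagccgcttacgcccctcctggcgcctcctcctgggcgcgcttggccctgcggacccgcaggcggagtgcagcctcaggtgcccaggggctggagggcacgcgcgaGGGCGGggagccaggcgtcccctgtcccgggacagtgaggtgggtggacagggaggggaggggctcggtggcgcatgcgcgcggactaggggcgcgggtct
Ppard chr17:28232504-28232753 (+ strand): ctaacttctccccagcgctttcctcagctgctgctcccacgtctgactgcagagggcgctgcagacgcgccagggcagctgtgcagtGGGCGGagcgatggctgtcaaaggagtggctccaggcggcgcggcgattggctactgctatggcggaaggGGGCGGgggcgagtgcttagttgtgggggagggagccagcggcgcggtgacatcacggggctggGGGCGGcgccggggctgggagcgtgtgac
Rora chr9:68653536-68653785 (+ strand): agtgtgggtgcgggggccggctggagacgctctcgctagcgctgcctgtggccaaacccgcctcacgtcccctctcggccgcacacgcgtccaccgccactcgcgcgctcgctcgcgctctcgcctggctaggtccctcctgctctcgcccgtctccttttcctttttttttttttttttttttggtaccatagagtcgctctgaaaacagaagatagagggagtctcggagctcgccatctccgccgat
Nr4a2 chr2:57124004-57124253 (- strand): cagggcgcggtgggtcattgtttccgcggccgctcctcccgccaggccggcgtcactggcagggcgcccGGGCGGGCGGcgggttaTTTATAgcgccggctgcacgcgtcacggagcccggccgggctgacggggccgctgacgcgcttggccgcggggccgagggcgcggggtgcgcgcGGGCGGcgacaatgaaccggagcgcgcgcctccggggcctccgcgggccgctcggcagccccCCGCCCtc
The GC box stood in the windows of Vdr, Ppara, Ppard and Nr4a2 and the TATA box in that of Nr4a2 alone, while none of the letters searched was in the window of Rora. Of the 42 members, 38 had at least 1 window in the RefSeq table, 59 windows in all. Among these, 44.1% held a GC box, against 32.7% of all 32851 windows of the same length. The median GC content was 59.6% in the members' windows and 52.4% in all windows, and its part in the GC box share was not tested. The nuclear receptor half-site AGGTCA was in 15.3% of the members' windows and 14.02% of all windows, and it was in none of the 5 printed here. Its repeats AGGTCANAGGTCA, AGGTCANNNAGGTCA and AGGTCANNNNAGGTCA were in 0 of the members' windows and in 0.0335%, 0.00609% and 0.0152% of all windows. The E-box CACGTG was in 6.78% of the members' and 6.02% of all windows, the cAMP response element TGACGTCA in 1.69% and 1.55%, and the TATA box in 11.9% and 12.4%. These matches describe the letters in 1 window and not sites that are bound in the ileum. The start sites used for Ppara and Vdr are internal, so their windows lie inside the span of the counted gene. The Ppard window overlaps the start of its gene, and those of Rora and Nr4a2 end directly before it.

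A small group of receptors made up most of the receptor RNA. Levels of different genes were compared as deposited FPKM, which divide the counts by gene length, and the members were ordered by their mean. The length used departs from the longest annotated transcript unevenly, with 7514 against 3726 bases for Ppard and 7425 against 6436 for Nr3c1. Ranks and ratios between genes, those of Ppard among them, therefore depend on the length used. In WT mice 13 members lay at or above 10 FPKM, 10 between 1 and 10, 7 between 0.1 and 1 and 10 below 0.1, and Nr2e1 and Nr0b1 had 0 reads in all 14 libraries. In IKO mice these classes held 13, 8, 7 and 9 members, and 5 had no read. The 10 most abundant members took 89.1 ± 1.7% (SD, n = 7) of the summed receptor FPKM in WT mice and, in IKO mice, 89.4 ± 0.7% (SD, n = 7).

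**Figure D1:**
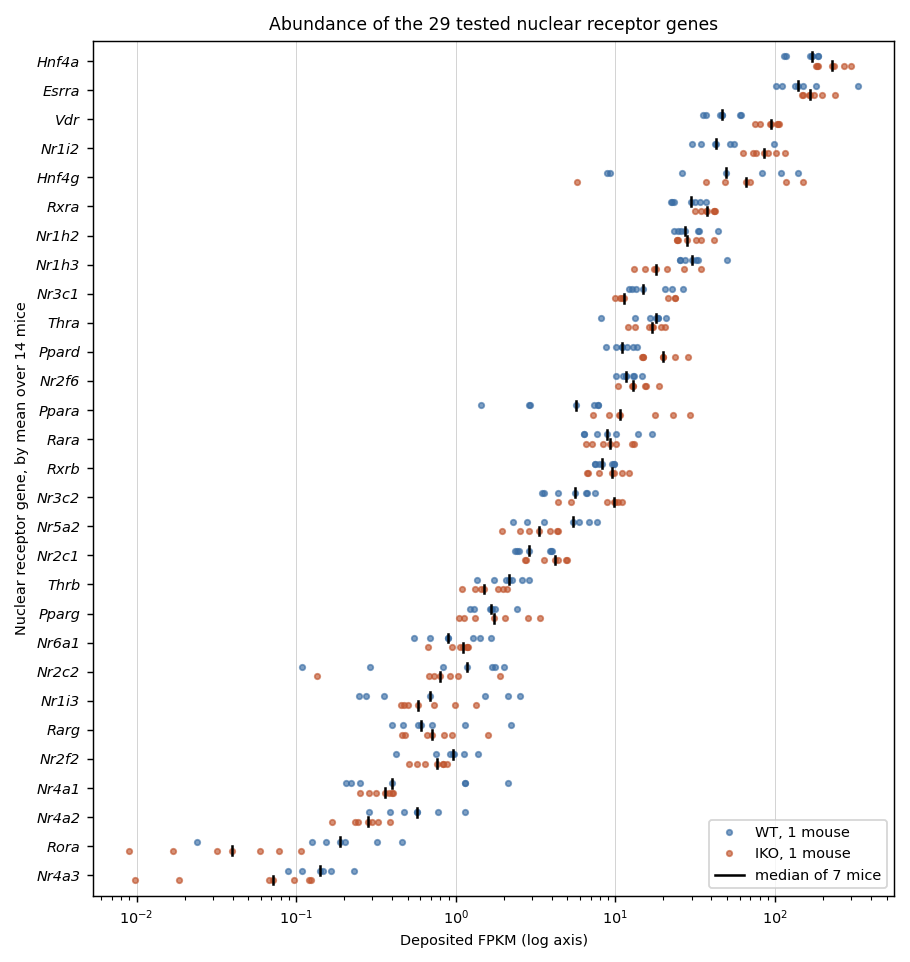
Deposited FPKM (log axis) of the 29 receptor genes that passed the count filter, 1 point per mouse (WT blue, IKO orange), with the median of each genotype as a black tick and genes ordered by their mean over 14 mice; 1 value at 0 (Nr4a3 in WT2) is not drawn. Hnf4a and Esrra head the order, Vdr and Nr1i2 sit higher in IKO mice, and Hnf4g, Nr2c2 and Rora spread over more than 10-fold within each genotype.

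Hnf4a and Esrra headed the order in both genotypes. Hnf4a, a regulator of enterocyte genes that is thought to bind fatty acids constitutively, ranged from 114 to 186 FPKM with a median of 171 in WT mice and from 182 to 298 with a median of 228 in IKO mice. Esrra, the orphan receptor ERRα of mitochondrial genes, ranged from 101 to 331 FPKM with a median of 139 in WT mice and from 148 to 236 with a median of 166 in IKO mice. Which of the 2 came first did not separate from their spread: Hnf4a was above Esrra in 5 of 7 WT and 6 of 7 IKO mice (exact two-sided sign-flip permutation test, p = 0.88 and 0.063).

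The next places were held by Vdr, Nr1i2 and Hnf4g. Vdr, the receptor for calcitriol, had a median of 46.3 FPKM (35.2 to 61.1) in WT and 94.1 FPKM (74.4 to 105.8) in IKO mice and moved from rank 5 to rank 3. Nr1i2, the xenobiotic receptor PXR, had a median of 43.0 FPKM (30.3 to 98.3) in WT and 84.7 FPKM (63.4 to 116.2) in IKO mice, at rank 4 in both. Hnf4g, the paralog of Hnf4a found mainly in the gut, had a median of 49.6 FPKM (8.89 to 138.8) in WT and 65.5 FPKM (5.76 to 149.7) in IKO mice. The highest Hnf4g value was 15.6 times the lowest in WT and 26.0 times in IKO mice, the largest such ratio among the 10 most abundant members.

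Rxra, the shared partner of many members, followed with a median of 29.9 FPKM (22.4 to 37.1) in WT and 37.7 FPKM (31.4 to 42.1) in IKO mice. The LXR genes Nr1h2 (LXRβ) and Nr1h3 (LXRα) had medians of 27.5 and 30.4 FPKM in WT mice and of 28.1 and 17.9 FPKM in IKO mice. Nr3c1, the glucocorticoid receptor, had a median of 14.9 FPKM (12.2 to 26.6) in WT and 11.3 FPKM (9.91 to 23.8) in IKO mice. Thra, the main thyroid hormone receptor gene of the gut, closed the first 10 with medians of 18.02 FPKM (8.17 to 20.7) and 16.9 FPKM (12.04 to 20.4). Ppara stood at rank 16 in WT and rank 12 in IKO mice, and Ppard at ranks 12 and 9.

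Few neighbours in this order kept it in every mouse. Among the 28 pairs of neighbours formed by the 29 tested members, the same gene was the higher in all 7 mice for 5 pairs in WT and 6 pairs in IKO mice. With 7 mice the smallest possible p of the exact two-sided sign-flip permutation test is 0.016. Adjusted over the 28 pairs of a genotype, the 5 WT and 6 IKO pairs at that p reached only 0.0875 and 0.073, so 0 passed. With so few pairs at the smallest p, this adjustment cannot decide whether neighbours are separated. The pairs were also formed by ranking the same values. Unadjusted, 7 pairs in WT and 11 in IKO mice had a p under 0.05. The pairs that kept their order in every WT mouse were Hnf4a over Hnf4g, Rxra over Nr3c1, Nr2c1 over Thrb, Nr4a2 over Rora and Rora over Nr4a3. In IKO mice they were Esrra over Vdr, Nr1h2 over Nr1h3, Nr3c2 over Nr2c1, Thrb over Nr6a1, Nr2f2 over Nr4a1 and Nr4a2 over Nr4a3.

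Whether loss of NCoR1 from the epithelium went with other levels of the receptors themselves was addressed by the comparison of IKO with WT mice. With edgeR's threshold of 0.05 on the Benjamini-Hochberg adjusted p, Vdr, Ppara and Ppard were higher and Rora and Nr4a2 lower in IKO mice, and the other 24 of 29 tested members did not pass. The share called was 17.2% of the tested members, and the background was 8.67% of the 13846 genes tested, with 4.38% higher and 4.28% lower. At an unadjusted p under 0.05 there were 13 members, 44.8% of those tested, against 30.4% of all genes. The log2 fold change was above 0 for 13 tested members and below 0 for 16, with a median of -0.04, against 43.5% of all genes above 0 and a median of -0.09. Each share counts members that passed the count filter and is a description of them. The remaining 13 members had too few reads to be tested.

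**Figure D2:**
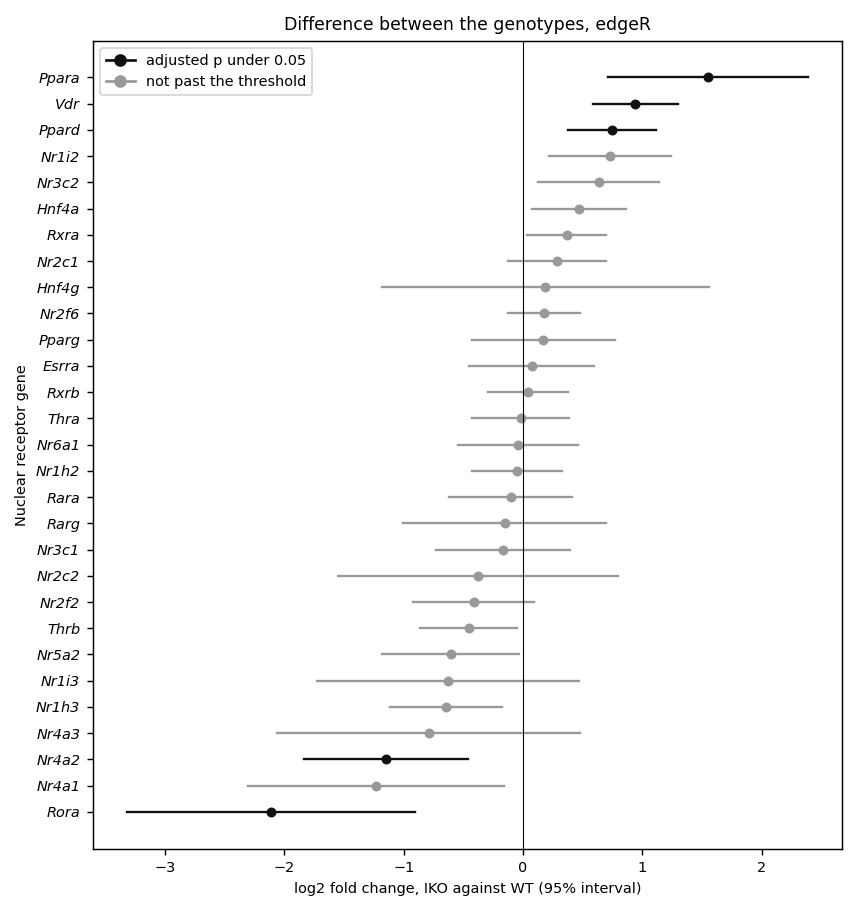
log2 fold change of IKO against WT mice for the 29 tested receptor genes from edgeR, with 95% intervals; black marks members with an adjusted p under 0.05. The 5 in black are Ppara at 1.55, Vdr at 0.94, Ppard at 0.74, Nr4a2 at -1.15 and Rora at -2.11, and 11 of the grey ones lie within 0.2 of 0.

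Vdr had the smallest adjusted p among the members. It lies on chromosome 15 from 97854425 to 97910630 (mm10, minus strand). In the 7 WT mice it ranged from 205 to 348 CPM with a median of 267, and in the 7 IKO mice from 421 to 588 CPM with a median of 532. Every IKO mouse was above every WT mouse, and IKO mice differed from WT mice by a log2 fold change of 0.94 (SE 0.17, 95% interval 0.59 to 1.297, edgeR adjusted p = 0.0055). With WT3, WT4 and IKO4 left out it was 0.85 (edgeR adjusted p = 0.033), and it passed in each of the 26 alternative fits.

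Of 6 genes known to respond to VDR, 4 were tested and 1 was higher. Slc30a10, a manganese exporter, went from a mean of 10.4 to 26.6 CPM, and the log2 fold change was 1.37 (SE 0.41, edgeR adjusted p = 0.050, just under the threshold). The 4 tested genes had a median log2 fold change of 1.08, and the summed level of all 6 lay between 120.5 and 330 CPM in WT and between 75.5 and 535 CPM in IKO mice, so the sums of the genotypes overlapped.

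Ppara and Ppard, the fatty acid receptors, were both higher in IKO mice. Ppara lies on chromosome 15 from 85734983 to 85802819 (mm10, plus strand). It ranged from 5.65 to 30.4 CPM with a median of 22.4 in WT mice and from 27.9 to 112 CPM with a median of 41.7 in IKO mice. Of the IKO mice 6 lay above the highest WT mouse, and IKO2, the lowest, lay below it. In edgeR the log2 fold change was 1.55 (SE 0.40, 95% interval 0.71 to 2.39, edgeR adjusted p = 0.029). The lowest Ppara values of WT mice were in WT4, WT7 and WT2. With WT3, WT4 and IKO4 left out the log2 fold change was 1.27 (edgeR adjusted p = 0.098), and it was also not called without WT7 (1.44, adjusted p = 0.061), without IKO3 (1.299, adjusted p = 0.052) or without IKO4 (1.43, adjusted p = 0.052, all from edgeR).

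Ppard lies on chromosome 17 from 28232700 to 28301474 (mm10, plus strand). It ranged from 67.7 to 105.1 CPM with a median of 84.0 in WT mice and from 111 to 210 CPM with a median of 148 in IKO mice. The genotypes did not overlap, as was also the case for Vdr but for no other of the 29 tested members, against 3.1% of all genes tested. The log2 fold change was 0.74 (SE 0.17, 95% interval 0.38 to 1.11, edgeR adjusted p = 0.019). Ppard passed in 24 of 26 alternative fits and in each of the 14 that left out 1 mouse. It was 0.65 (edgeR adjusted p = 0.069) with WT3, WT4 and IKO4 left out and 0.72 (edgeR adjusted p = 0.063) with the replicate number as a block. IKO4, with the largest share of mitochondrial counts, had the highest Ppard level, and the log2 fold change was 0.64 without it (edgeR adjusted p = 0.030) and 0.75 with mitochondrially encoded genes removed (edgeR adjusted p = 0.019).

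The adipose paralog Pparg had 5.03 CPM (3.70 to 7.41) in WT and 5.06 CPM (3.07 to 10.06) in IKO mice by the median, with a log2 fold change of 0.17 (95% interval -0.43 to 0.77). Of 16 genes known to respond to PPARs, 13 were higher in IKO mice, and the median of the log2 fold changes was 1.56. They were led by the lipid droplet protein Plin2 (log2 fold change 1.89), the pyruvate dehydrogenase kinase Pdk4 (3.42) and the carnitine carrier Slc25a20 (1.37), with edgeR adjusted p of 7.6e-05, 0.00027 and 0.00029. Their summed level was 1466 to 3722 CPM in WT and 5225 to 11339 CPM in IKO mice without overlap. PPAR targets were already known to be higher in these libraries when the list was written. Over all lists of receptor targets, ligand enzymes and immediate-early genes together, edgeR called 36 of 97 tested genes higher and 0 lower. Of all genes, 4.38% were called higher and 4.28% lower. Of the 97, 5 were lower at an unadjusted p under 0.05, and DESeq2 called 46 higher and 1 lower, against 17.9% of all genes in either direction. The other lists were also written with earlier results of these libraries known, so these counts describe the lists only.

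**Figure D3:**
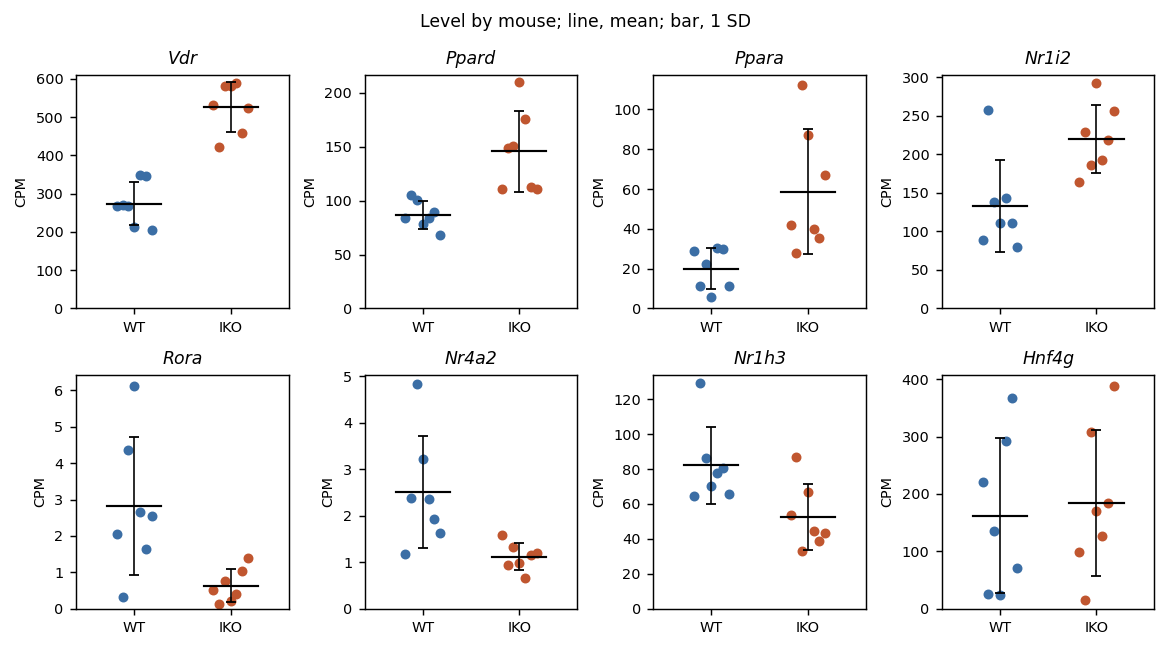
CPM of 8 receptor genes by mouse (WT blue, IKO orange), with the mean as a line and 1 SD as a bar; each panel has its own axis from 0. The genotypes do not overlap for Vdr and Ppard, 6 of 7 IKO mice lie above all WT mice for Ppara, and Nr1i2, Nr1h3 and Hnf4g did not pass the test.

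Rora and Nr4a2 were lower in IKO mice, both at low levels. Rora, the receptor that activates clock genes at the sites REV-ERB proteins repress, lies on chromosome 9 from 68653786 to 69388246 (mm10, plus strand). It had 405 reads in the 7 WT and 76 reads in the 7 IKO libraries, 129 of the former in WT4. It ranged from 0.32 to 6.13 CPM with a median of 2.55 in WT mice and from 0.12 to 1.39 CPM with a median of 0.53 in IKO mice. No IKO mouse reached the WT median, but WT2, the lowest WT mouse, was below 5 IKO mice. The log2 fold change was -2.11 (SE 0.57, 95% interval -3.32 to -0.90, edgeR adjusted p = 0.035). It was -1.79 without WT4 (edgeR adjusted p = 0.064) and -1.38 with WT3, WT4 and IKO4 left out (edgeR adjusted p = 0.17), and the part of the smooth muscle markers of WT4 in the result was not tested. Leaving out any of WT3, WT4, WT7, IKO1, IKO2, IKO3, IKO4 or IKO5 ended the call.

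Of 5 clock genes with ROR sites, 4 were higher. These were the repressor Nfil3 (log2 fold change 2.59), Npas2 (1.47) and Arntl (1.77), with edgeR adjusted p of 7.6e-05, 0.0025 and 0.0032, and Cry1 (0.61, edgeR adjusted p = 0.035). For Clock it was -0.50 (edgeR adjusted p = 0.22). The 4 genes that passed moved in the direction opposite to that of Rora. REV-ERB proteins act at the same sites, and the hour at which tissue was taken is not given in the sources used here.

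Nr4a2, an orphan receptor that many stimuli induce within minutes to hours, lies on chromosome 2 from 57106830 to 57124003 (mm10, minus strand). It had 336 reads in WT and 129 reads in IKO libraries. It ranged from 1.18 to 4.83 CPM with a median of 2.36 in WT mice and from 0.67 to 1.58 CPM with a median of 1.15 in IKO mice. No IKO mouse reached the WT median, and 4 of them lay below the lowest WT mouse. The log2 fold change was -1.15 (SE 0.32, 95% interval -1.83 to -0.46, edgeR adjusted p = 0.041). It passed in 8 of 23 alternative fits, 4 of the 14 that left out 1 mouse among them, and was -0.72 with WT3, WT4 and IKO4 left out (edgeR adjusted p = 0.19).

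The other members of its group had the same sign without passing. Nr4a1, with the largest log2 fold change among the members that did not pass in edgeR, had a median of 1.43 CPM (0.73 to 7.65) in WT and 1.24 CPM (0.88 to 1.43) in IKO mice, and the log2 fold change was -1.23 (SE 0.50, edgeR adjusted p = 0.12). Its 3 highest libraries were WT4, WT3 and WT7, and the log2 fold change was -0.75 without WT4 (edgeR adjusted p = 0.28), -0.39 with WT3, WT4 and IKO4 left out (edgeR adjusted p = 0.62) and -0.057 with limma-voom quality weights (limma adjusted p = 0.94). Nr4a3 had a median of 0.86 CPM in WT and 0.42 CPM in IKO mice, and the log2 fold change was -0.79 (SE 0.60, edgeR adjusted p = 0.38), with 0 reads in WT2. Of 12 tested immediate-early genes, which many of the same stimuli induce, 1 passed in edgeR, the antiproliferative gene Btg2, which was higher in IKO mice (log2 fold change 1.08, edgeR adjusted p = 0.0071), and limma-voom called 5 higher. The median over the list was 0.28.

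The most abundant members that did not pass split between both directions. Nr1i2 ranged from 79.9 to 257 CPM with a median of 111 in WT mice and from 164 to 293 CPM with a median of 218 in IKO mice. All 7 IKO mice were above the WT median, and WT2 alone among the WT mice reached the IKO range. The log2 fold change was 0.73 (SE 0.24, 95% interval 0.22 to 1.24, edgeR adjusted p = 0.067), and without WT2 it was 0.98 (edgeR adjusted p = 0.0096). That was the only 1 of the 14 fits leaving out 1 mouse in which Nr1i2 passed. It passed in 5 of 26 alternative fits in all, and was 0.61 with WT3, WT4 and IKO4 left out (edgeR adjusted p = 0.22). Of 11 genes known to respond to PXR and to CAR (Nr1i3), 5 were higher, led by the monooxygenase Cyp2c55 (log2 fold change 4.45), the retinal dehydrogenase Aldh1a1 (1.76) and the monooxygenase Cyp3a11 (4.61), with edgeR adjusted p of 0.00027, 0.00044 and 0.0018. Nr1i3 itself had a median of 3.13 CPM (1.13 to 11.5) in WT and 2.53 CPM (1.97 to 5.84) in IKO mice, with a log2 fold change of -0.63 (95% interval -1.73 to 0.46).

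Hnf4a had a median of 836 CPM (570 to 926) in WT and 1113 CPM (876 to 1421) in IKO mice, with a log2 fold change of 0.47 (95% interval 0.08 to 0.87, edgeR adjusted p = 0.11). Rxra had a median of 166 CPM (126 to 211) in WT and 208 CPM (169 to 228) in IKO mice, with a log2 fold change of 0.37 (95% interval 0.04 to 0.70, edgeR adjusted p = 0.13). For both genes all 7 IKO mice lay above the WT median. In DESeq2, the package of the study, Hnf4a, Rxra and Nr1i2 passed beside the 5 named above, 8 members in all, where 17.9% of all genes passed. Of 8 tested HNF4 targets 0 passed in edgeR, 0 in DESeq2 and 0 at an unadjusted p under 0.05 in edgeR, and the median of their log2 fold changes was 0.33.

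Esrra, Nr1h2, Nr3c1 and Thra had 95% intervals of the log2 fold change from -0.45 to 0.59, from -0.43 to 0.32, from -0.73 to 0.39 and from -0.43 to 0.39. None of the 4 passed. Of 6 tested ERR targets 2 were higher, among them cytochrome c, Cycs (log2 fold change 0.80, edgeR adjusted p = 0.017). Of 4 tested targets of the thyroid hormone receptor 2 were higher, the malic enzyme Me1 (2.16, adjusted p = 0.0026) and the deiodinase Dio1 (1.08, adjusted p = 0.037, both edgeR). Of 4 tested targets of the retinoic acid receptors 1 was higher, the homeobox gene Isx (1.17, edgeR adjusted p = 0.0011), and of 2 tested LRH-1 targets 0 passed in edgeR or DESeq2 or at an unadjusted p under 0.05, with log2 fold changes of 0.17 and -0.09.

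Enzymes that make or remove receptor ligands were counted beside the receptors. Of 10 tested, 4 were higher: Aldh1a1, which forms retinoic acid, Hsd17b2, which inactivates estradiol and testosterone (log2 fold change 1.00, adjusted p = 0.023), Dio1 and Dhrs9, a retinol dehydrogenase (1.70, adjusted p = 0.041, from edgeR). The summed level of all 15 enzymes on the list was 312 to 611 CPM in WT and 1020 to 1372 CPM in IKO mice without overlap. Without Aldh1a1, whose mean went from 280.0 to 946 CPM, the sum was 122 to 399 CPM in WT and 175 to 347 CPM in IKO mice, so the genotypes then overlapped. Of the other enzymes 2 were lower at an unadjusted p under 0.05, Cyp27a1, a sterol hydroxylase (log2 fold change -1.003, edgeR adjusted p = 0.11), and Aldh1a3 (-0.70, edgeR adjusted p = 0.15).

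Closely related receptors can share ligands and sites, so their balance within a mouse was also described. The log2 ratio of FPKM was compared for 17 pairs of related members, a family of comparisons chosen after the values had been seen, with exact two-sided permutation tests over all 3432 divisions into 7 and 7 and Benjamini-Hochberg adjustment over the 17. The ratio differed between the genotypes for 2 pairs. For Nr3c1 over Nr3c2, the glucocorticoid over the mineralocorticoid receptor, the WT mice lay between 2.68 and 3.56 and the IKO mice between 1.14 and 2.53, without overlap. The mean log2 ratio of the WT mice was 1.69 ± 0.15 (SD, n = 7) and that of the IKO mice 0.87 ± 0.45 (SD, n = 7) (exact permutation p = 0.00058, the smallest possible, adjusted p = 0.0099). Neither gene passed alone in edgeR without a covariate: the log2 fold change was -0.17 for Nr3c1 (adjusted p = 0.69) and 0.63 for Nr3c2 (adjusted p = 0.095). Nr3c2 had medians of 37.4 CPM in WT and 64.5 CPM in IKO mice. It passed with GC content as a covariate (0.87, edgeR adjusted p = 0.0050) and with limma-voom quality weights, and it did not pass in DESeq2. The aldosterone-protecting enzyme Hsd11b2 had a value of 0.44 on the log2 scale (edgeR adjusted p = 0.50). Of 7 tested targets of the glucocorticoid receptor 2 were higher, Nfkbia (0.63, adjusted p = 0.019) and Sgk1 (1.27, adjusted p = 0.036, both edgeR), and Sgk1, a kinase that both receptors induce, was also the 1 of 2 tested targets of the mineralocorticoid receptor that passed.

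For Nr1h2 over Nr1h3, LXRβ over LXRα, the ratio was 0.81 to 1.21 in WT and 1.00 to 1.86 in IKO mice. LXRβ was the higher in 2 of 7 WT and 7 of 7 IKO mice, and the mean log2 ratio was -0.07 ± 0.19 (SD, n = 7) and 0.56 ± 0.30 (SD, n = 7) (exact permutation p = 0.0017, adjusted p = 0.015). Nr1h3 ranged from 64.7 to 129 CPM with a median of 77.6 in WT and from 32.8 to 86.7 CPM with a median of 44.4 in IKO mice, 5 of which lay below every WT mouse. Its log2 fold change was -0.65 (SE 0.22, edgeR adjusted p = 0.075). Nr1h3 passed in 4 of 26 alternative fits, 1 of the 14 that left out 1 mouse among them. It passed with GC content as a covariate (-0.86, edgeR adjusted p = 0.0089) and with limma-voom quality weights (-0.79, limma adjusted p = 0.0056). It did not pass in DESeq2 (-0.62, DESeq2 adjusted p = 0.054) or with WT3, WT4 and IKO4 left out (-0.74, edgeR adjusted p = 0.13). Of 11 genes known to respond to LXRs, 3 were higher, the desaturases Scd1 (5.40) and Scd2 (3.48) and the lipogenic factor Srebf1 (1.64), with edgeR adjusted p of 0.0027, 0.0062 and 0.0056. DESeq2 called 7 of the 11 higher and limma-voom 8, and 7 were higher at an unadjusted p under 0.05 in edgeR. The sterol exporters Abca1 (1.39, adjusted p = 0.081), Abcg8 (0.80, adjusted p = 0.073) and Abcg5 (0.47, adjusted p = 0.29) did not pass in edgeR.

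**Figure D4:**
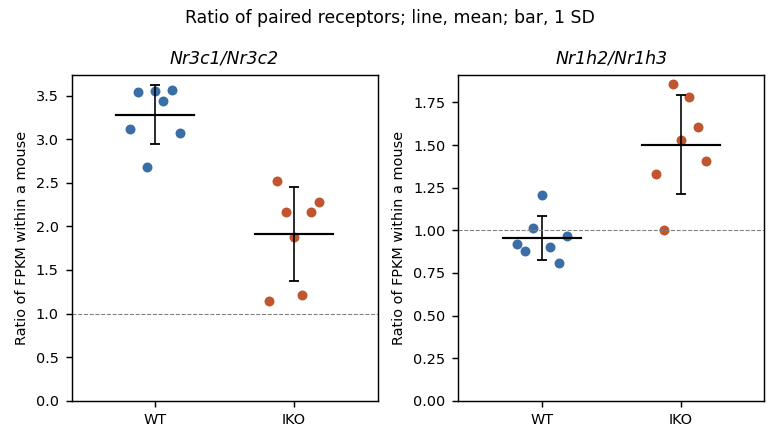
Ratio of FPKM within each mouse for Nr3c1 over Nr3c2 and Nr1h2 over Nr1h3, 1 point per mouse, with the mean as a line, 1 SD as a bar and a dashed line at a ratio of 1. The Nr3c1 over Nr3c2 ratios of the genotypes do not overlap. With the deposited gene lengths, the Nr1h2 over Nr1h3 ratio is above 1 in 7 of 7 IKO and 2 of 7 WT mice.

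Both ratios passed with WT3, WT4 and IKO4 left out (adjusted p = 0.037 for each) and in all 14 repeats that left out 1 mouse (adjusted p from 0.0099 to 0.020 and from 0.0099 to 0.030, exact permutation tests). The other 15 pairs did not pass. Under the alternatives, Vdr over Nr1i3 and Nr1i2 over Nr1i3 also passed with a pseudocount of 1 FPKM (adjusted p = 0.0050 and 0.0066), Nr2f2 over Nr2f6 without WT2 (0.040) and Nr2c1 over Nr2c2 with WT2, WT4 and IKO2 left out (0.037), by exact permutation tests. Among the 15, the median ratio of Ppara over Ppard was 0.44 in WT and 0.74 in IKO mice (exact permutation p = 0.062, adjusted p = 0.15), and that of Thra over Thrb was 7.38 and 10.6 (exact permutation p = 0.12, adjusted p = 0.21). Hnf4a exceeded Hnf4g, Rxra exceeded Rxrb and Rara exceeded Rarg in all 14 mice.

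Hnf4g and Nr2c2 varied more between mice than between the genotypes. Hnf4g was at 24.0 CPM in WT4, 24.9 in WT2 and 15.1 in IKO2, and between 70.9 and 389 CPM in the other libraries. Nr2c2, the orphan receptor TR4, was at 1.66 CPM in WT4, 4.44 in WT2 and 2.004 in IKO2, and between 9.96 and 30.2 CPM in the others. The same 3 libraries were thus the lowest for both genes. They were also the lowest for Nr3c2, at 23.8 CPM in WT4, 22.9 in WT2 and 28.1 in IKO2. Ppara was at 5.65 CPM in WT4, 11.4 in WT7 and 11.5 in WT2, and its lowest IKO library was IKO2 at 27.9 CPM. In IKO2, well-counted genes rich in GC stood 0.65 (log2, difference of medians relative to the mean library) above those poor in GC, with 0.27 in WT2 and 0.21 in WT4. IKO4 and IKO5 had 0.41 and 0.36 without such low values of Hnf4g or Nr2c2. With this GC difference of each library as a covariate, the log2 fold change of Hnf4g rose from 0.19 to 1.10 (edgeR adjusted p = 0.87 and 0.12) and that of Nr2c2 went from -0.38 to 0.33 (edgeR adjusted p = 0.67 and 0.65), so the estimates for both genes moved with this term and neither passed. Paralog Hnf4a ranged over 570 to 926 and 876 to 1421 CPM within the genotypes. With the same covariate the log2 fold change of Ppara went from 1.55 to 1.92 (edgeR adjusted p = 0.029 and 0.0078). That of Nr3c2 went from 0.63 to 0.87 (edgeR adjusted p = 0.095 and 0.0050).

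**Figure D5:**
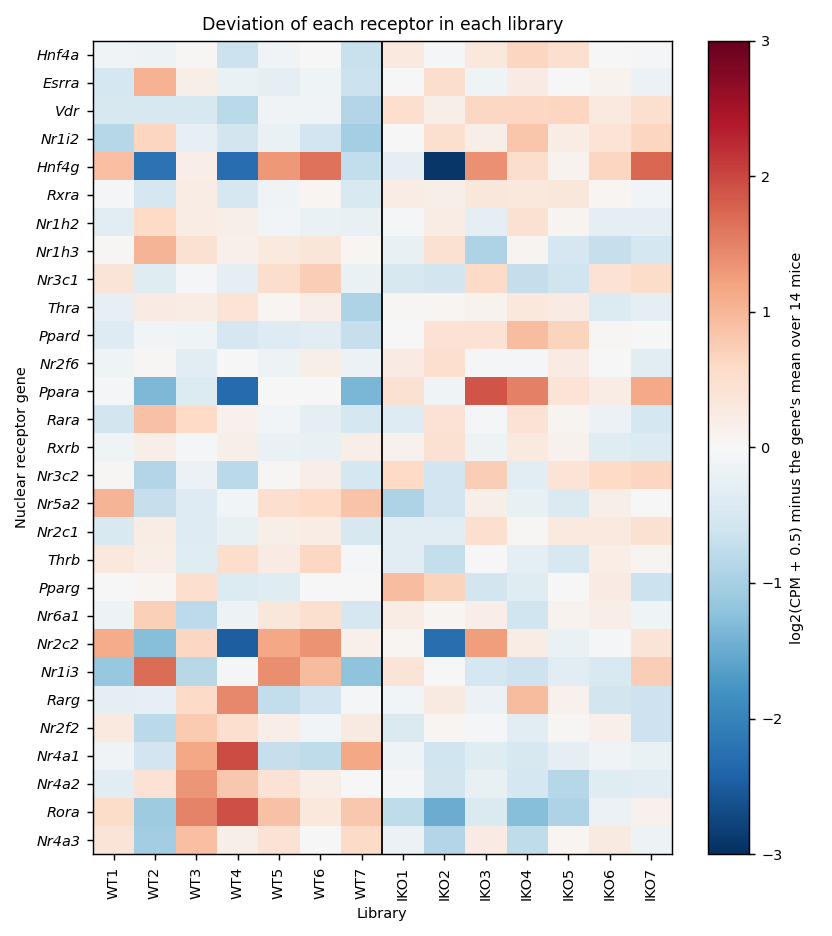
log2(CPM + 0.5) of each of the 29 tested receptor genes in each library, minus the gene's mean over 14 mice, by colour; the black line divides WT from IKO libraries. Hnf4g and Nr2c2 are low in WT2, WT4 and IKO2, and Rora and Nr4a1 are highest in WT4.

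The other tested members did not pass in edgeR, and their values overlapped between the genotypes. Nr5a2, the orphan receptor LRH-1 of crypts, had a median of 32.7 CPM (13.8 to 46.5) in WT and 19.2 CPM (11.7 to 25.8) in IKO mice, with a log2 fold change of -0.61 (95% interval -1.18 to -0.03, edgeR adjusted p = 0.15). Thrb had a median of 16.2 CPM (10.4 to 21.3) in WT and 10.9 CPM (8.07 to 15.6) in IKO mice, with a log2 fold change of -0.45 (95% interval -0.86 to -0.05, edgeR adjusted p = 0.13). For both genes no IKO mouse exceeded the WT median. Of the fits, only limma-voom with quality weights called Nr5a2 lower. Nr2f6, Nr2c1, Rxrb and Nr6a1 had log2 fold changes of 0.18, 0.28, 0.04 and -0.04, the retinoic acid receptors Rara and Rarg of -0.10 and -0.15, and Nr2f2 and Nr2c2 of -0.42 and -0.38, none of which passed (adjusted p from 0.25 to 0.92, edgeR).

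The 13 members that were not tested were near or at 0. Nr2e3, a photoreceptor gene, had 204 reads in 13 of the 14 libraries, and the estrogen receptor gene Esr1 had 120 reads in 13. For Esr1, Esrrb, Nr2f1, Rxrg and Rorb, WT4 held 47 of 120, 33 of 58, 22 of 38, 13 of 15 and 10 of 11 reads, and WT4 was also the library with the highest smooth muscle, fibroblast and neuronal marker sums. Esrrg had 65 reads, Rarb 25 and the progesterone receptor gene Pgr 14. Esr2 and Nr5a1 had 1 read each, both in WT7. Nr0b1 and Nr2e1 had none, which allows a level of up to 0.0119 CPM (3 counts over all 14 libraries, for counting error only). A fit without a count filter covered 11 of the 13. All 11 log2 fold changes were below 0, 2 had an unadjusted p under 0.05 (Esrrb, 0.0077, and Rxrg, 0.023, both with most reads in WT4), and 0 passed in edgeR (smallest adjusted p 0.13). The matching shares of all genes in this fit were not computed, so these counts describe the 11 genes only.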

How the data were processed

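RNA of ileum mucosa from 7 WT and 7 IKO mice was measured. The authors cleaned the reads, aligned them with HISAT2 2.0.5 to mm10 (build from the submitters' processing notes) and counted them with featureCounts 1.5.0-p3, and the counts were deposited as whole numbers, not normalized. Strand setting and annotation release are not given in the sources used here. The deposited FPKM equal counts per kilobase divided by a DESeq2 size factor times 1 constant, as tested on the values. Genotypes came from the sample titles, and the columns headed KO are the IKO mice.

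After filterByExpr and TMM scaling, genotypes were compared by the quasi-likelihood F test of edgeR 4.0.16 under R 4.3.3 with no other term, and p values were adjusted (Benjamini-Hochberg) over 13846 genes. The standard error is the size of the log2 fold change over the square root of F. Orders use log2(FPKM + 0.1). The script was tested on simulated counts. DESeq2 1.42.0, limma 3.58.1 on log2 FPKM, limma-voom with quality weights, RLE scaling, other filters, the mouse number as a block and left-out mice were alternatives, and GC content as a covariate and the ratios of related receptors were chosen after seeing the data.

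The members, the gene lists (written from general knowledge) and the rules were chosen with earlier results of these data known. Values are named for every member that passed, the 10 most abundant, the 3 largest changes that did not pass, members with 1 library far from the rest, and up to 3 genes per list by adjusted p. Others were named after their values were seen. Some genes are not reported here. Library depth was 14749669 to 21557468 counts.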

Additional observations from a re-analysis of the deposited data

Results flagged for a closer look

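In 5 of the 58 groups of 7 values examined (29 members in 2 genotypes, log2 CPM), 1 library stood far from the other 6 by Dixon's criterion, where chance gives about 2.9. The measure is the gap of that library to its nearest neighbour as a share of the whole range of the group. IKO2 was low for Hnf4g (0.576), at 15.1 CPM against 98.5 to 389 in the other IKO mice, and for Nr2c2 (0.600), at 2.004 against 9.96 to 28.4 CPM. WT2 was high for Nr1h3 (0.583), at 129 CPM against 64.7 to 86.3 in the other WT mice, and low for Nr4a3 (0.671), at 0 against 0.53 to 1.43 CPM. IKO4 was low for Nr6a1 (0.586), at 7.10 CPM against 10.1 to 13.0 in the other IKO mice. Without WT2 the log2 fold change of Nr1h3 was -0.50 (edgeR adjusted p = 0.12), and without IKO2 it was -0.81 (edgeR adjusted p = 0.033).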

How the results depend on the processing

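Vdr was called in all 26 alternative fits, with log2 fold changes from 0.83 to 1.01. The 5 receptor calls were also 5 with RLE scaling or without mitochondrial genes. They became 8 of 2484 genes called with DESeq2. With limma-voom quality weights they were 8 of 1889, with Nr1i2, Nr3c2, Nr1h3 and Nr5a2 added and Nr4a2 lost. They were 7 of 2083 with GC content as a covariate (adding Nr3c2 and Nr1h3) and 3 of 508 without a count filter. They were 2 of 614 with limma on log2 FPKM without a filter, and 1 of 433 with WT3, WT4 and IKO4 left out. The edgeR fit of all mice called 1200 genes. Leaving out 1 mouse gave 2 to 6 receptor calls and 515 to 1371 genes. There were 2 without IKO3 or IKO4 and 3 without WT3, WT4, WT7, IKO1 or IKO5. The replicate numbers do not pair the mice: same-numbered mice correlated between -0.31 and 0.23 and 1 of 7 numbers best with itself. With the replicate block 362 genes and 1 receptor, Vdr, were called.

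Small log2 fold changes turned sign. Thra became 0.010 with DESeq2 or RLE, 0.013 with the block, 0.00067 without a filter, 0.045 and 0.050 with limma at pseudocounts of 1 and 0.1, and 0.049 without the 3 libraries. Hnf4g became -0.084 with quality weights and -0.063 without the 3 libraries. With the GC covariate Esrra became -0.055 and Nr3c1 0.073, while Hnf4g kept its sign and rose to 1.10. Leaving out 1 mouse gave -0.15 to 0.050 for Thra, -0.11 to 0.53 for Hnf4g, -0.025 to 0.35 for Esrra and -0.14 to 0.063 for Nr1h2. The causes were not tested.

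Low counts limit Rora, Nr4a2, Nr4a1 and the 13 untested receptors.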
